A study of Mus musculus with 3 samples.

Results

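Dividing mesenchymal-like cells were a small set of 73 cells, 0.489% of the 14925 cells kept, in a mouse esophageal culture profiled by droplet single-cell RNA sequencing of transcript 3' ends. They were selected on their own transcripts. A cell was kept with at least 500 genes, at least 1000 UMIs (unique molecular identifiers, 1 per captured RNA molecule) and at most 20% mitochondrial UMIs. A member then needed at least 3 UMIs in M, the sum of Vim, Col5a1, Grem1, Aebp1 and Ccn5. It also needed at least 3 UMIs in P, the sum of Nusap1, Ube2c, Ccna2, Birc5, Cdc20, Top2a, Cdk1 and Cenpf, and at most 4 UMIs in the sum of Epcam, Krt5 and Krt14.

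The culture, named PC in the labels, came from esophageal organoids of Trp53 floxed/floxed mice. Ad-Cre-EGFP, an adenovirus carrying Cre and a green fluorescent protein, was used to knock out Trp53, and CRISPR/Cas9 knockout of Cdkn2a or Notch1 followed to give lines named PC and PCN. The organoids were dissociated and grown in DMEM with fetal bovine serum, at first with the kinase inhibitor Y-27632 and later without it. The PC cells expressed Cas9 throughout, received a barcode library by lipofection, were expanded and were sorted as live RFP-positive cells. The labels put the recovered cells at about 20000, and the deposited matrix held 18116 barcodes and 47720034 UMIs. All sets below come from this 1 culture with no replicate. The labels give 1 genotype and handling for the whole culture, and whether each set carries every edit was not tested. How many mice or clones founded the culture is not given in the sources used here. No test between conditions was therefore possible, and every interval is a 95% interval that covers counting error only.

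Mesenchymal cells make the fibrous matrix, contract, and lack the keratins and junctions of an epithelium, and epithelial tumour cells can take on such a program. A dividing cell switches on its genes in waves. Genes for copying DNA peak in S phase, and genes for the spindle, the kinetochore and the exit from mitosis peak in G2 and M. Whether a cell enters the cycle is set in G1 by cyclin D kinases and by inhibitors such as the proteins of the Cdkn2a locus.

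3 sets served as comparison. Non-dividing mesenchymal-like cells met the same M and epithelial limits with at most 1 UMI in P, and numbered 1442. Dividing low-M cells had at most 1 UMI in M and at least 3 in P, and numbered 2057. The epithelial limit on the first set is an addition, since the comparison as first worded had none and held 1513 cells. Non-dividing low-M cells had at most 1 UMI in each of M and P and numbered 10698. The low-M cells were largely epithelial, since Epcam, an epithelial adhesion molecule, had a UMI in 94.7% of the dividing ones (93.6 to 95.6, exact binomial). The remaining 655 cells lay between the sets.

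Members held 2235 to 7405 UMIs each, with a median of 4462, and 322348 in all. Median depth was 3329 in non-dividing mesenchymal-like, 3739 in dividing low-M and 2748 in non-dividing low-M cells, so members were the deepest set, and a sum of raw UMIs is reached more easily in a deeper cell. Median mitochondrial share was 2.17% in members and 2.87% in their non-dividing counterparts. The top 10% of doublet scores held 12 of 73 members (16.4%), 4.72% of non-dividing mesenchymal-like and 16.2% of dividing low-M cells, and 61 members remained without them. The part of depth and of mixed droplets in the results was not tested. A level in CPM is the count of a gene over the cells of a set, scaled to 1000000 UMIs in all.

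The genes that chose the members describe the selection and support nothing. M ran from 3 to 23 with a median of 7, the same median as in non-dividing mesenchymal-like cells. P ran from 3 to 44 with a median of 9, against 10 in dividing low-M cells. Just inside the limit, 10 members had P of 3, and just outside it 25 mesenchymal-like cells had P of 2. Likewise 7 members had M of 3 and 7 further cells would have been members with an M of 3 in place of 2. The epithelial sum was 0 in 37 members and 4 in 2 of them, and 24 more cells with M and P of at least 3 were left out for a sum of 5 or more, 1 of them at exactly 5.

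Vim (chromosome 2, 13573927 to 13582826, GRCm38), the intermediate filament of mesenchymal cells, had a UMI in 72 of 73 members and lay at 1222 CPM (1105 to 1349), with 0 to 14 UMIs per cell and a median of 5. It was at 1186 CPM in non-dividing mesenchymal-like and 6.06 CPM in dividing low-M cells. With each cell drawn down to 1500 UMIs, Vim had a UMI in 89% of members and in 1% of dividing low-M cells (raw 2.33%), which the rule itself holds to 1 UMI of M per cell. Grem1 (chromosome 2, 113746164 to 113758646), a secreted BMP antagonist, was far from universal: 33 of 73 members had a UMI (thinned 26%), against 59.4% of non-dividing mesenchymal-like cells (thinned 39.5%). Its level was 307 CPM (249.6 to 374) against 440.0 CPM in the non-dividing cells. The other 3 genes of M were each lower in members than in non-dividing cells, at 99.3 against 171 CPM for the collagen Col5a1, 58.9 against 127 CPM for Aebp1 and 133 against 222 CPM for Ccn5. On the division side, Top2a (chromosome 11, 98992943 to 99024189), the topoisomerase that untangles replicated DNA, had a UMI in 54 members and lay at 558 CPM, and Birc5 (chromosome 11, 117849251 to 117855743), survivin of the chromosomal passenger complex, also had one in 54 members and lay at 472 CPM. In dividing low-M cells the same genes were at 653 and 501 CPM.

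Markers outside the rule bore out the label in part. Col1a1, a fibrillar collagen chain, was at 264 CPM (211 to 326) in members and 2.15 CPM in dividing low-M cells. Acta2, smooth muscle actin, was at 5286 CPM against 243, and Zeb1, a repressor of epithelial genes, at 80.7 CPM against 2.27. Of 20 fibroblast markers, however, 11 had no UMI in any member, among them Thy1, Pdpn, Fap, Tcf21, Prrx1, Dpt, Pi16 and Lum. A count of 0 in the members was read against a floor of 9.31 CPM, the level of 3 UMIs, and its exact 95% limit was 11.4 CPM. Col1a2, the partner chain of Col1a1, had 0 UMIs in members and 0.613 CPM in non-dividing mesenchymal-like cells. The summed fibroblast list, 1201 CPM in members and 2327 CPM in dividing low-M cells, was mostly Ly6a, a surface antigen that epithelial cells also carried at 2234 CPM. Of 10 markers of pericytes and smooth muscle, 8 were at 0, including Rgs5, Myh11 and Des. Beyond the genes of the rule, the name mesenchymal-like thus rests on matrix, contractile and Zeb genes, and most defining markers of fibroblasts and mural cells were not detected.

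Other cell types left few molecules. Of 8 immune markers 7 were at 0, including Ptprc, and the list summed to 3.1 CPM, 1 UMI of Cd68. Of 8 endothelial markers 7 were at 0, including Pecam1 and Cdh5, and the list summed to 9.31 CPM. The 36 epithelial genes outside the rule summed to 1123 CPM (1010.3 to 1245) in members, to 1215 (1184 to 1246) in non-dividing mesenchymal-like cells and to 7895 (7833 to 7957) in dividing low-M cells. The summed level in members was thus not above that in non-dividing mesenchymal-like cells, both sets being held to 4 UMIs of Epcam, Krt5 and Krt14. Over the 13 epithelial genes with a mean of at least 20 CPM in both sets together the median ratio was 0.973, 1 gene was at least 2-fold higher and none lower. Of the members' 362 epithelial UMIs, Sfn, Krt17 and Perp gave 59, 55 and 43, Cdh1 gave 3 and Trp63, the basal lineage factor, gave 1.

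Division was less common in mesenchymal-like than in low-M cells. Of 1540 cells with M of at least 3 and an epithelial sum of at most 4, 73 had P of at least 3, a share of 4.74% (3.73 to 5.92, exact binomial). Of 13100 low-M cells 2057 did, or 15.7% (15.1 to 16.3). P was also counted with every cell drawn down to 1500 UMIs, while M and the epithelial sum stayed at raw depth. Leaving out 10 mesenchymal-like and 1628 low-M shallower cells, the shares were 3.01% (46 of 1530, 2.21 to 3.99) and 12.3% (1413 of 11472, 11.7 to 12.9). With the whole rule applied after drawing down, they were 3.08% of 909 cells (2.06 to 4.42) and 12.1%. No P transcript at all was seen in 81% of mesenchymal-like and 72% of low-M cells. Among the dividing cells themselves, P reached 10 or more in 36 of 73 members (49.3%, 37.4 to 61.3) and in 51% (48.8 to 53.2) of dividing low-M cells.

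Against non-dividing mesenchymal-like cells, members had higher levels of most mitotic genes outside the rule that could be compared. Of 6222 genes compared, those with a mean of at least 20 CPM over both sets and outside the 16 genes of the rule, 380 were at least 2-fold higher in members (6.11%) and 217 at least 2-fold lower (3.49%). The median ratio over all of them was 1.01. These counts use a fold alone, and a mean of 20 CPM rests on only 6.45 UMIs in members, so counting error alone carries some genes past 2-fold. With a mean of at least 100 CPM, a limit chosen after the values were seen, 49 genes were higher and 25 lower. The cells were selected on division transcripts, so this contrast describes the selection.

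**Figure D1:**
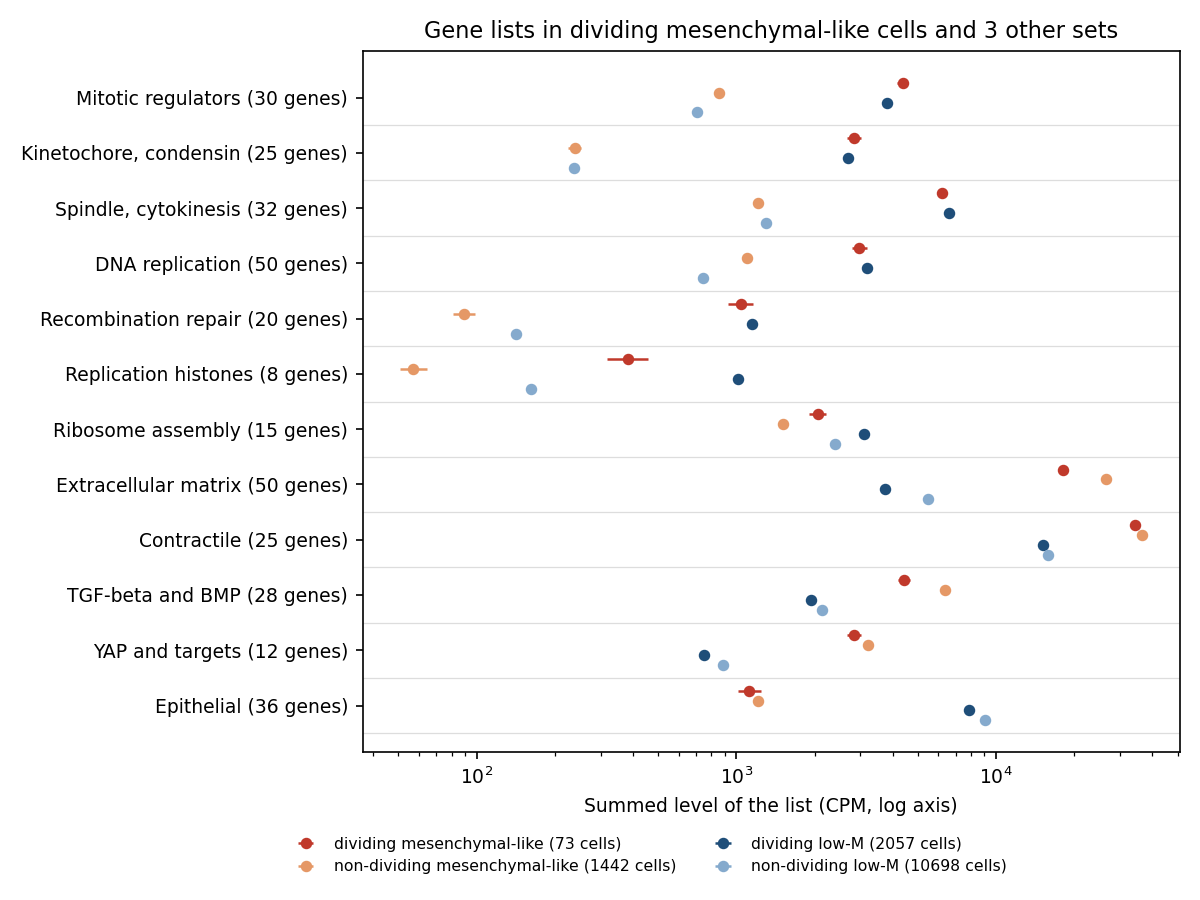
Summed levels of 12 gene lists (horizontal axis, CPM, log scale) in the 4 sets of cells, with dots for the summed set and bars for exact 95% Poisson intervals. Dividing mesenchymal-like cells (red) sat with dividing low-M cells on the mitosis and replication lists nearer to non-dividing mesenchymal-like cells on the matrix, contractile, YAP and epithelial lists, and between the 2 on replication histones.

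The 3 mitosis lists held 87 genes, of which 66 could be compared, and 63 were at least 2-fold higher and none at least 2-fold lower. The 3 in between were Pttg1 at 1.14-fold, Zwint at 1.28-fold and Tuba1c at 1.76-fold. Together the lists came to 13383 CPM (12987 to 13789) in members and 2312 (2269 to 2355) in non-dividing cells, a 5.79-fold difference. Over the 66 genes the median ratio was 22.1, with a gene under 3 UMIs in a set counted at 3, against the 1.01 over all genes. Per cell, the lists ran from 2287 to 25722 CPM in members, median 12152, and from 0 to 11963 CPM in non-dividing cells, median 2105. The 2 ranges overlapped.

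Among regulators, Plk1, the polo kinase of mitotic entry, lay at 71.4 CPM against 0.613, and Bub1, a spindle checkpoint kinase, at 112 against 1.02 CPM. Cks1b and Cks2, small partners of cyclin-dependent kinases, were at 757 and 661 CPM in members against 137 and 92.2 in non-dividing cells. Ube2s, an E2 enzyme of the anaphase-promoting complex, was at 788 against 221 CPM. Plk1 and Bub1, nearly undetected outside division, thus differed by far larger factors than Cks1b, Cks2 and Ube2s.

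Kinetochore genes were likewise higher. Cenpa, the histone H3 variant of centromeres, was at 549 CPM (471 to 636) against 17.6, with 0 to 10 UMIs per member, a median of 2 and a UMI in 57 of 73. Ndc80, which holds microtubule ends, had 15 UMIs in members, each in a different cell, and 1 UMI in all 1442 non-dividing cells (ratio 228, 35 to 9581). Smc2 and Smc4, the core of condensin, were at 292 and 335 CPM against 19.8 and 55.2.

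Of the spindle genes, Hmmr (chromosome 11, 40701395 to 40733422), a microtubule-binding hyaluronan receptor, was at 189 CPM (145 to 243) against 0.818 CPM and was detected in 36 members. The kinesin Kif20a of cytokinesis was at 62 against 0.409 CPM and Aspm, a spindle pole protein, at 77.6 against 0.613. Tubb5, a beta-tubulin, was the most abundant gene of the lists at 1961 CPM, 2.98-fold (2.73 to 3.24) higher than in non-dividing cells.

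Outside the lists, the largest ratios among genes with at least 20 UMIs in members also belonged to division genes. Esco2, a cohesin acetyltransferase of S phase, was at 71.4 against 0.613 CPM, and Neil3, a DNA glycosylase, at 71.4 against 0.818. Diaph3, an actin-nucleating formin, was at 186 against 7.77 CPM, Plk4, the kinase of centriole duplication, at 112 against 6.34, and the centromere gene Cenpp at 171 against 13.9. These genes were not in the rule, but they come from the contrast it made.

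Promoter sequences of genes that were high together are shown because many mitotic promoters hold 2 known elements, the cell cycle homology region and the CCAAT box. Windows were taken from RefSeq on GRCm38.p6, from 250 bases before to 50 after each annotated start. They were searched on both strands for TTTGAA or TTTAAA and for CCAAT, overlapping matches included. The stretch printed runs from 100 bases before the start to 20 bases after it, on the strand of the gene, with matches to either element in capitals. A capital ATTGG or TTCAAA is a match on the opposite strand. The windows, elements and genes shown were picked after the values had been seen.
Top2a, chr11:99024170-99024289, minus strand: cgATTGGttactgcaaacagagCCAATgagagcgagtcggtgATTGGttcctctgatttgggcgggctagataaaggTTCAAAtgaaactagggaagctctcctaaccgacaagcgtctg
Cdk1, chr10:69352893-69353012, minus strand: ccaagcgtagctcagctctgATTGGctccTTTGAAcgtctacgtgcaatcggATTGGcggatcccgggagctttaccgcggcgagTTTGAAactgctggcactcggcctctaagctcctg
Ccnb2, chr9:70421535-70421654, minus strand: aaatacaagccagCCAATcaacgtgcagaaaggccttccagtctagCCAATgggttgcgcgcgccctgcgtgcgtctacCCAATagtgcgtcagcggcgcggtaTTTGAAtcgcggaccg
Hmmr, chr11:40733418-40733537, minus strand: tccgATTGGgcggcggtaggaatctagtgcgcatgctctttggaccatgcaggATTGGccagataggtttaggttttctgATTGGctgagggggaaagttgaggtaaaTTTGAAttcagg
Vim, chr2:13574211-13574330, plus strand: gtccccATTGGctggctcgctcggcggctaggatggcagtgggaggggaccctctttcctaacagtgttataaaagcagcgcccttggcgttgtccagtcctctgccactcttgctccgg

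The 4 division genes each held at least 1 TTTGAA match and at least 2 CCAAT matches in the stretch shown, and Vim held no TTTGAA or TTTAAA and 1 CCAAT. Over the full 300-base windows, TTTGAA or TTTAAA occurred in 27.6% of all 32851 windows and in 66.7% of 81 windows for the 72 of 87 mitosis genes that could be matched. The replication list had 24.4%, the matrix list 25.6% and the contractile list 20.8%. Together with 2 or more CCAAT matches, the shares were 3.13% of all windows, 34.6% for mitosis, 11.1% for replication, 2.56% for matrix and 8.33% for contractile genes (2 of 24 windows). These are matches of letters and not measured binding.

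Replication genes were higher by a smaller factor. The 50 genes summed to 2978 CPM (2793 to 3173) in members and 1098 in non-dividing cells, 2.71-fold. Of 28 compared, 24 were at least 2-fold higher and none lower, with a median ratio of 4.56 against 22.1 for the mitosis genes. Rrm2 and Tk1, which supply deoxynucleotides, were at 102 and 109 CPM against 2.04 and 2.66. Pcna, the sliding clamp of DNA polymerase, was at 139.6 against 39.3 CPM. Dut, which breaks down dUTP, stood apart: it was at 719.7 CPM in members but already at 547 CPM in non-dividing mesenchymal-like cells, 1.32-fold. Non-dividing low-M cells had 87.3 CPM. Dut alone was thus a large part of the 1098 CPM and holds down the ratio of the sums. Of the repair list, 6 of 6 genes compared were higher, led by Pclaf, a PCNA-binding protein, at 490.2 against 4.29 CPM.

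Chromatin genes followed the same direction, 13 of 14 being at least 2-fold higher. H2afz, a histone H2A variant, was at 2218 CPM against 574 and had a UMI in all 73 members, and Hmgb2, a DNA-bending protein, was at 614 against 68.7. Ribosome assembly genes were modestly higher at 1.36-fold (1.25 to 1.47), with none of 12 past 2-fold, and Npm1, the main nucleolar protein, was at 1145 against 875 CPM. The 83 ribosomal protein genes were at 1.17-fold (1.15 to 1.18).

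**Figure D2:**
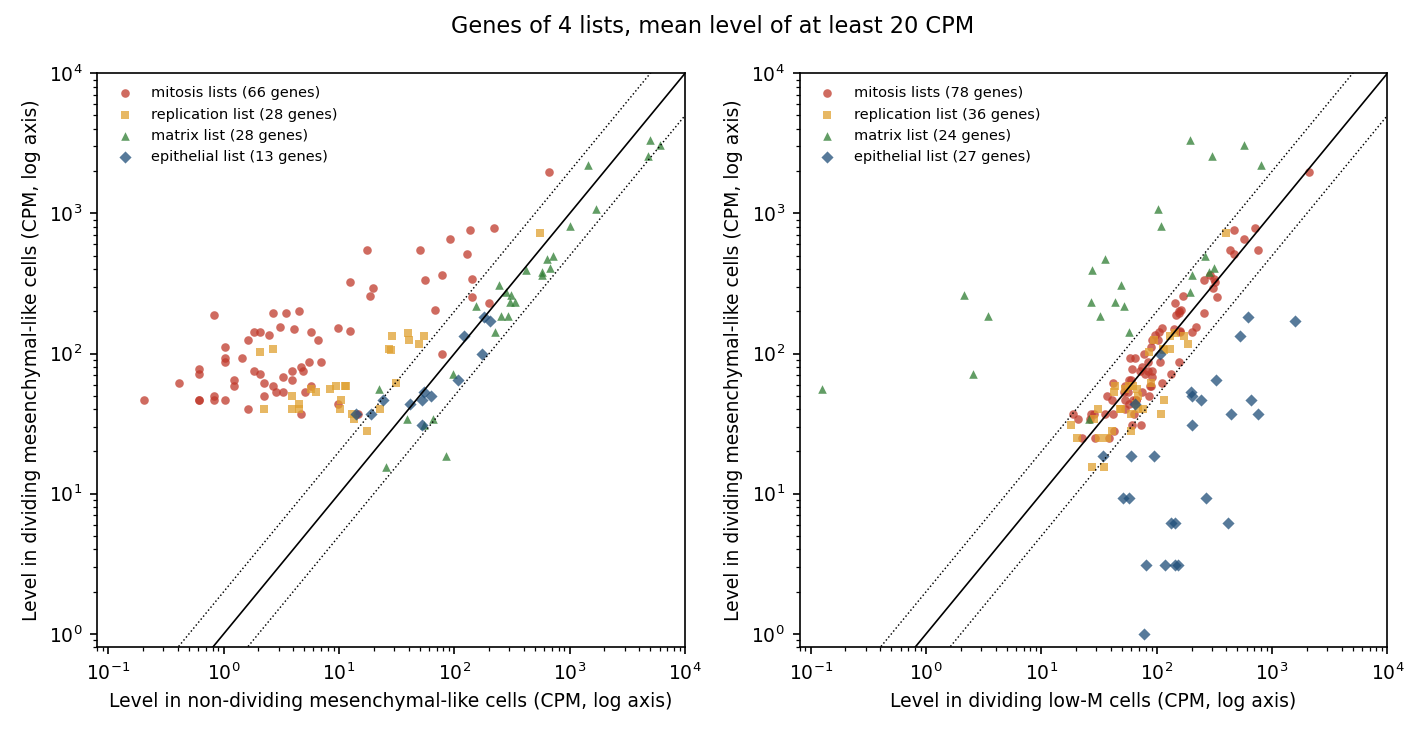
Levels of single genes (CPM, log axes) in dividing mesenchymal-like cells against non-dividing mesenchymal-like cells (left) and dividing low-M cells (right), for genes of 4 lists with a mean of at least 20 CPM, each point 1 gene. The solid line marks equal levels, the dotted lines 2-fold, and a level under 1 CPM on the vertical axis is drawn at 1. On the left 63 of 66 mitosis genes lie above the 2-fold line and most of the matrix and epithelial genes near equality, and on the right the mitosis genes lie near equality with most matrix genes above and most epithelial genes below.

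The mesenchymal program was present in the dividing cells, with lower levels of most matrix genes. The 50 matrix genes outside the rule summed to 18021 CPM (17560.4 to 18490.4) in members and 26456 (26312 to 26601) in non-dividing cells, 0.681-fold, and the median ratio was 0.697. Per cell the list ran from 6946 to 37959.7 CPM in members, median 16960.2, well inside the 1958 to 106396 CPM of non-dividing cells, median 25667. Of 28 genes compared, 1 was at least 2-fold higher and 1 at least 2-fold lower, against 6.11% and 3.49% of all genes compared. No UMI was seen in members for 10 of the 50. Without Thbs1, Fn1 and Spp1, a subset chosen after the values were seen, the ratio of the sums was 0.845 (0.814 to 0.877). The median ratio of the 25 compared genes left was 0.734, so the lower level was not confined to those 3 genes. On the full list, dividing low-M cells were at 0.682-fold of non-dividing low-M cells.

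Thbs1 (chromosome 2, 118111876 to 118127133), the matricellular protein thrombospondin, was at 3081 CPM (2892 to 3278) against 6047, 1.96-fold lower, with 1 to 69 UMIs per member and a median of 10. Fn1 (chromosome 1, 71585520 to 71653200), fibronectin, was at 2547 CPM (2376 to 2727) against 4720.4, 1.85-fold lower, with 1 to 37 UMIs per member and a median of 11. Spp1, osteopontin, was at 3350.4 against 4988 CPM and was uneven among members, from 0 to 94 UMIs. Lgals1, the lectin galectin-1, went the other way at 2209 against 1453 CPM, 1.52-fold (1.41 to 1.64) higher. All 4 stayed within 2-fold of the non-dividing cells.

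The 2 matrix genes past 2-fold rested on few molecules. Col3a1, a fibrillar collagen, had 6 UMIs in 5 members, 18.6 CPM against 84.6. Dcn, the proteoglycan decorin, was at 55.8 against 22.3 CPM, but 77.8% of its 18 UMIs came from 1 cell. Without the 5% of cells with the most UMIs the ratio turned to 0.577, and with an epithelial sum of at most 1 to 0.359. Outside the lists, Mmp12, a macrophage-type elastase, had 0 UMIs in members against 77.9 CPM in non-dividing cells. With a floor of 3 UMIs over the members it was 8.37-fold lower. The counting interval of the ratio began at 6.77-fold, but it takes each UMI as independent. In the non-dividing cells the 381 UMIs of Mmp12 lay in only 82 of 1442 cells (5.69%), 11.8% of them in 1 cell. By cells, 0 of 73 members allows a share of up to 4.93% (exact binomial), close to 5.69%, so the size of the difference is not settled. Ogn, a small leucine-rich proteoglycan, was at 15.5 CPM from 5 UMIs against 114 CPM.

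Contractile genes differed little. The 25 genes summed to 34351 CPM in members and 36486 in non-dividing cells, 0.941-fold (0.924 to 0.96), and none of 20 compared was past 2-fold in either direction. Acta2, with 0 to 94 UMIs per member and a median of 18, was at 5286 against 5551 CPM, and Tpm1, a tropomyosin, at 5302 against 6274. Vcl, the focal adhesion protein vinculin, was at 369 CPM (306 to 442) against 731, just inside 2-fold, and Cald1, caldesmon, at 1622 against 2563. Tagln, transgelin, had a UMI in only 30 members, and 32.4% of its UMIs came from 1 cell. The regulators Zeb1 and Zeb2 were at 80.7 and 74.5 CPM against 91.6 and 89.6, and the intervals of both ratios included 1.

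Among signalling genes, the summed TGF-beta, growth factor, YAP and Wnt lists were lower in members, with few single genes past 2-fold. In low-M cells the same lists were also lower with division, at 0.907, 0.766, 0.848 and 0.878-fold in that order. Over all genes compared, 6.11% were at least 2-fold higher and 3.49% lower in members. A count of 1 gene in a short list is not set apart from those shares. The TGF-beta and BMP list summed to 4411 CPM against 6369, 0.693-fold, with 1 of 19 genes past 2-fold and none higher. It was the ligand Tgfb3 at 9.31 against 55.6 CPM on 3 UMIs (ratio 0.167, 0.0343 to 0.494). Inhba, a subunit of activin, was at 732 CPM (642 to 832) against 1439, and Fstl1, a follistatin-like protein, at 1064 against 1691. Id3, a BMP target, was at 741 against 1095 CPM, while Id1 was at 307 against 291. The growth factor list was at 0.672-fold, most of it Igfbp7, an insulin-like growth factor binding protein, at 5193 against 8413 CPM. The YAP list was at 0.88-fold (0.823 to 0.941), with Yap1 the 1 gene of 11 past 2-fold, lower in members, and its target Ccn2 at 1064 against 1274 CPM. The Wnt list was at 0.848-fold (0.745 to 0.961), with 1 of 10 genes at least 2-fold higher and 1 lower. Wnt10a, a ligand, was the higher one, at 31 against 10.2 CPM on 10 UMIs (ratio 3.03, 1.37 to 6.05). Dkk2, a Wnt antagonist, was at 86.9 against 176 CPM, 2.03-fold lower (1.39 to 3.07).

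Among secreted immune signals and metabolic genes, single genes differed. The chemokine and cytokine list summed to 0.927-fold, while the median ratio of its 11 compared genes was 1.2, on the other side of 1. Of these 1 was at least 2-fold higher and 1 lower, against 6.11% and 3.49% of all genes compared. Ccl2, a monocyte chemokine, was at 1412 against 1507 CPM, and its neighbour in function Ccl7 at 667 against 1242, 1.86-fold lower. Ccl20 had 2 UMIs in members, 6.2 CPM against 60.7 (ratio 0.102, 0.0123 to 0.372). Interferon-stimulated genes were at 0.904-fold and glycolysis and hypoxia genes at 0.972-fold, where 3 of 18 were at least 2-fold lower, Hk1, Hk2 and Ankrd37, and none higher. Hk2, a hexokinase, was at 40.3 against 92.6 CPM. Mitochondrial transcripts were at 0.779-fold (0.761 to 0.797), and at 0.788-fold in dividing against non-dividing low-M cells.

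Of the genes named for knockout in the PC and PCN lines, Cdkn2a (chromosome 4, 89274471 to 89294653) encodes the inhibitors p16 and p19Arf. It was at 875 CPM (776 to 983) in members with a UMI in 71 of 73, a median of 4 and at most 13 UMIs per cell. It was at 1260.3 CPM (1229 to 1292) in non-dividing mesenchymal-like, 387 in dividing low-M and 591 in non-dividing low-M cells. Cdkn2b (chromosome 4, 89306299 to 89311039), the neighbouring inhibitor gene, was at 171, 325, 111 and 217 CPM in the same order. Both genes were lower in dividing than in non-dividing cells within each type, and both were higher in mesenchymal-like than in low-M cells of the same division class. Trp53 (chromosome 11, 69580359 to 69591873) gave 6 UMIs in members, 18.6 CPM against 17 in non-dividing mesenchymal-like and 51.9 in non-dividing low-M cells. Notch1 (chromosome 2, 26457903 to 26516663) gave 2 UMIs, and a Notch1 edit in the PC line is not established here. A 3' read need not fall in the edited part of a gene, so these levels do not check the knockouts.

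Of the 25 G1 genes, 15 could be compared and 4 were at least 2-fold higher in members, namely Ccnd1, Cdk2, E2f1 and Cdkn2d. None was at least 2-fold lower, and over all genes compared the shares were 6.11% higher and 3.49% lower. The summed list was lower in members, at 0.902-fold (0.839 to 0.969), while the median ratio of the 15 compared genes was 1.33. Ccnd1 (chromosome 7, 144929931 to 144939925), cyclin D1, was at 171 CPM (129 to 222) against 64.8, and the low-M cells had 281 and 217 CPM with and without division. Ccnd2, cyclin D2, was at 195 against 306 CPM, so the 2 cyclins differed in direction. E2f1, a transcription factor released by Rb, was at 37.2 CPM from 12 UMIs against 9.61. Cdkn1a, which encodes p21, was low in both mesenchymal-like sets, at 18.6 CPM from 6 UMIs and 4.7 CPM, and at 89.9 CPM in dividing low-M cells. The p53 list as a whole was at 0.999-fold (0.895 to 1.11) with a median ratio of 1.11, and none of 11 genes was past 2-fold.

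Against dividing low-M cells, members had a like summed level of mitotic genes and other levels of identity genes. The cells were selected on both M and the epithelial limit, so this contrast, too, describes the selection. Of 6369 genes compared, 642 were at least 2-fold higher in members (10.1%) and 552 at least 2-fold lower (8.67%), with a median ratio of 1.02. The 3 mitosis lists summed to 13383 against 13069.8 CPM, a ratio of 1.02 (0.993 to 1.06), and both sets were selected with the same limit on P. None of 78 mitosis genes was at least 2-fold higher and 1 was lower, Ncapg2, a condensin subunit, at 31 against 73.1 CPM. Cks1b at 1.64-fold (1.43 to 1.86) and Tpx2, a spindle assembly factor, at 1.52-fold (1.2 to 1.9) leaned higher in members, and Stmn1, a microtubule destabiliser, at 0.718-fold (0.614 to 0.834) and Kif11, the bipolar spindle kinesin, at 0.559-fold (0.37 to 0.812) leaned lower.

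Replication histones were the furthest from equal levels among the division lists. The 8 genes of the chromatin list that are made with DNA synthesis, a subset chosen after the values were seen, summed to 382 CPM (317 to 455) in members and 1018 (996 to 1041) in dividing low-M cells, a ratio of 0.375 (0.311 to 0.448). Of 7 compared, 6 were at least 2-fold lower. Hist1h2ae was at 65.1 against 201 CPM, Hist1h1e at 83.8 against 255, and Hist1h1a, the gene within 2-fold, at 31 against 47.1. Most of these messages lack a poly(A) tail, so a poly(A)-primed library holds only part of them, and near-identical copies may share reads. Non-dividing cells showed the same order, 57 CPM in mesenchymal-like and 162 in low-M cells. The replication list was closer in its sum, 2978 against 3184 CPM (0.935-fold, 0.876 to 0.998). The median ratio of its 36 compared genes was lower, at 0.833. Of these, 4 were at least 2-fold lower and none higher, against 8.67% and 10.1% of all genes compared. Those 4 included Pola1, a subunit of DNA polymerase alpha, at 37.2 against 109 CPM and Hells, a chromatin remodeller, at 46.5 against 116. Dut, the gene of the list with the most UMIs in members, went the other way at 1.81-fold higher (1.58 to 2.07), which raises the sum.

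At equal depth, members and dividing low-M cells had like median numbers of mitosis and replication transcripts. Both sets were selected with the same limit on P, so the like mitosis numbers follow in part from the selection. With 1500 UMIs drawn from each cell, the mitosis lists gave a median of 19 UMIs in members (lowest 4, highest 47) and 19 in 2000 dividing low-M cells, against 3 in both non-dividing sets. The replication list gave a median of 4 in both dividing sets. No member had more replication than mitosis UMIs, which allows up to 4.11% by a floor of 3 cells and 4.93% by the exact binomial limit. Among dividing low-M cells 2.8% (2.12 to 3.62) did. Outside division, 16.6% of non-dividing mesenchymal-like and 10.1% of non-dividing low-M cells did. The mitosis lists hold 87 genes and the replication list 50, so the 2 counts are not on an equal footing. 10 or more replication UMIs, a cut-off set after the values were seen, occurred in 4 of 73 members (5.48%, 1.51 to 13.4) and in 12.1% (10.7 to 13.6) of dividing low-M cells. These intervals overlap. P holds genes of G2 and mitosis, and how many cells in early S phase it misses was not tested.

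**Figure D3:**
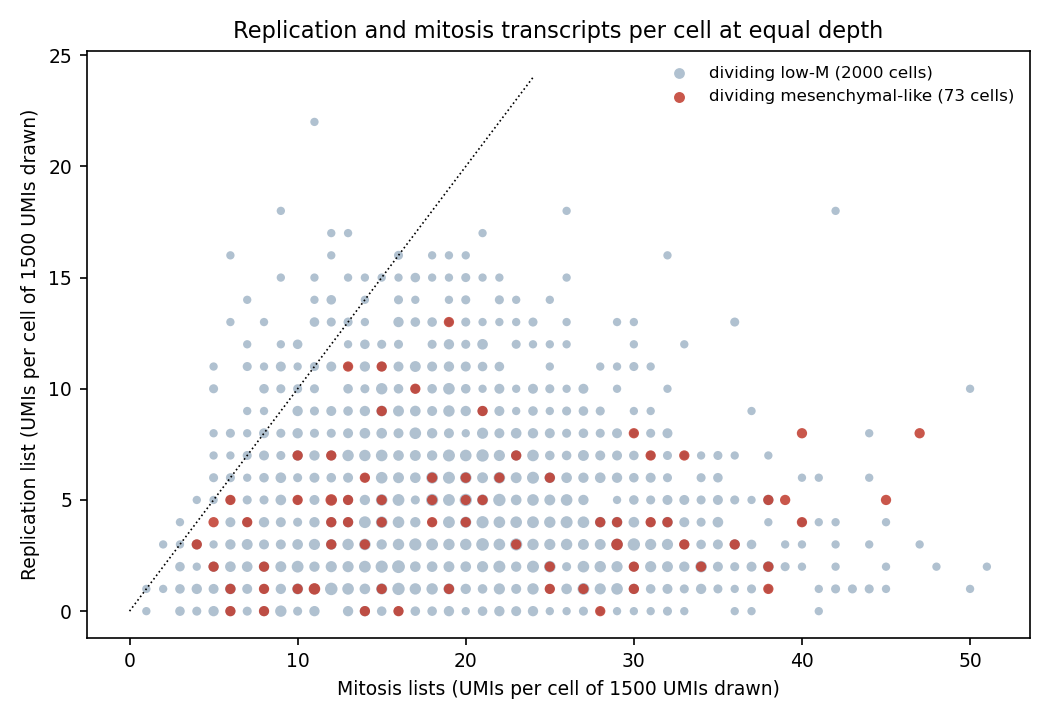
UMIs of the replication list (vertical) against UMIs of the 3 mitosis lists (horizontal) per cell, each cell drawn down to 1500 UMIs; larger dots stand for more cells with the same pair of values, and the dotted line marks equal counts. All 73 members (red) lie on or below the line, within the cloud of 2000 dividing low-M cells (blue).

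Identity genes differed between the 2 dividing sets in the direction the rule selected. The matrix list was at 18021 against 3745 CPM, 4.81-fold, with 18 of 24 genes at least 2-fold higher and none lower, and Fn1 was at 2547 against 304. The contractile list was 2.26-fold higher with 10 of 19 genes past 2-fold. Twist2, a mesenchymal transcription factor, was at 34.1 against 6.44 CPM, Fgf7, a fibroblast growth factor for epithelia, at 65.1 against 0.379, and Cxcl12, a stromal chemokine, at 257 against 0.884. Their lists held genes past 2-fold in both directions, where 10.1% of all genes compared were higher and 8.67% lower. Of 5 fibroblast genes 4 were higher and 1 lower, of 17 growth factor genes 8 and 4, and of 13 chemokine genes 4 and 5. Of 14 cadherins and regulators of the epithelial to mesenchymal change, 7 were higher and 3 lower. Of the epithelial list outside the rule, 24 of 27 genes were at least 2-fold lower and none higher, with Cdh1, E-cadherin, at 9.31 against 265 CPM and Krt17 at 171 against 1594. The 3 within 2-fold were Dsg2, Pkp1 and Elf3.

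Outside the lists, Cacna1c, a voltage-gated calcium channel subunit, was at 90 CPM (60.3 to 129) in members and 0.253 in dividing low-M cells, and Adam19, a membrane metalloprotease, at 130.3 against 0.758. Adam19 had a UMI in 32 members. Cck, the peptide hormone cholecystokinin, was at 62 against 0.126 CPM, but 1 cell gave 70% of its UMIs. In the other direction Wfdc18, a secreted protease inhibitor, was at 102 against 5739 CPM, and 1 member held 72.7% of its 33 UMIs. Gpx2, a glutathione peroxidase, was at 18.6 against 776 CPM, Ehf, an epithelial ETS factor, at 6.2 against 249 from 2 UMIs, and Fxyd3, a regulator of the sodium pump, at 71.4 against 1391.

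Signals and translation also differed between the 2 dividing sets. The YAP list was 3.77-fold higher (3.51 to 4.04), with 8 of 11 genes past 2-fold, and Ccn2 was at 1064 against 83.1 CPM. Fstl1 was at 1064 against 43.6 CPM, while Fst, follistatin, was lower at 37.2 against 212. Ppbp, a platelet chemokine, was at 599 against 4708 CPM and Ccl7 at 667 against 29.2, so chemokines differed in both directions. Ribosomal protein genes were at 0.749-fold (0.742 to 0.757) and ribosome assembly genes at 0.666-fold (0.615 to 0.719), with 3 of 12 at least 2-fold lower. Over all genes compared, 10.1% were at least 2-fold higher and 8.67% lower. The 4 Y-linked genes Ddx3y, Uty, Eif2s3y and Kdm5d summed to 310.2 CPM in members, 341 in non-dividing mesenchymal-like and 119 in dividing low-M cells.

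Within the members, the transcript sum P went with the mitosis lists, while matrix levels were nearly flat. Members were split, after the values were seen, into 28 cells with P of 3 to 5, 17 with 6 to 14 and 28 with 15 or more, and the mitosis lists, which P tracks by construction, were at 7902, 11918 and 18592 CPM. The matrix list was at 17675, 17991 and 18318 CPM, and the contractile list at 34767, 34842 and 33765. The epithelial list was at 1368, 1383 and 792 CPM, lowest at P of 15 or more. Median depth was 4002, 4103 and 5050 UMIs.

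Cdkn2a lay at 1104 CPM (919 to 1315) in members with P of 3 to 5, at 869.6 (665 to 1117) in the middle class and at 691 (559.7 to 844) at 15 or more. The counting intervals of the lowest and highest classes did not overlap, but they leave out the spread between cells, and the classes also differed in depth. In dividing low-M cells the same classes were at 418, 350.2 and 408 CPM, with no such order. Thbs1 was at 3399, 3108 and 2807 CPM in members, below the 6047 CPM of non-dividing cells in every class. Spp1 was at 2702, 2409 and 4355 CPM, and 1 cell held 8.7% of the Spp1 UMIs of all members. The points are cells of 1 sample, and the differences between classes were not tested.

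**Figure D4:**
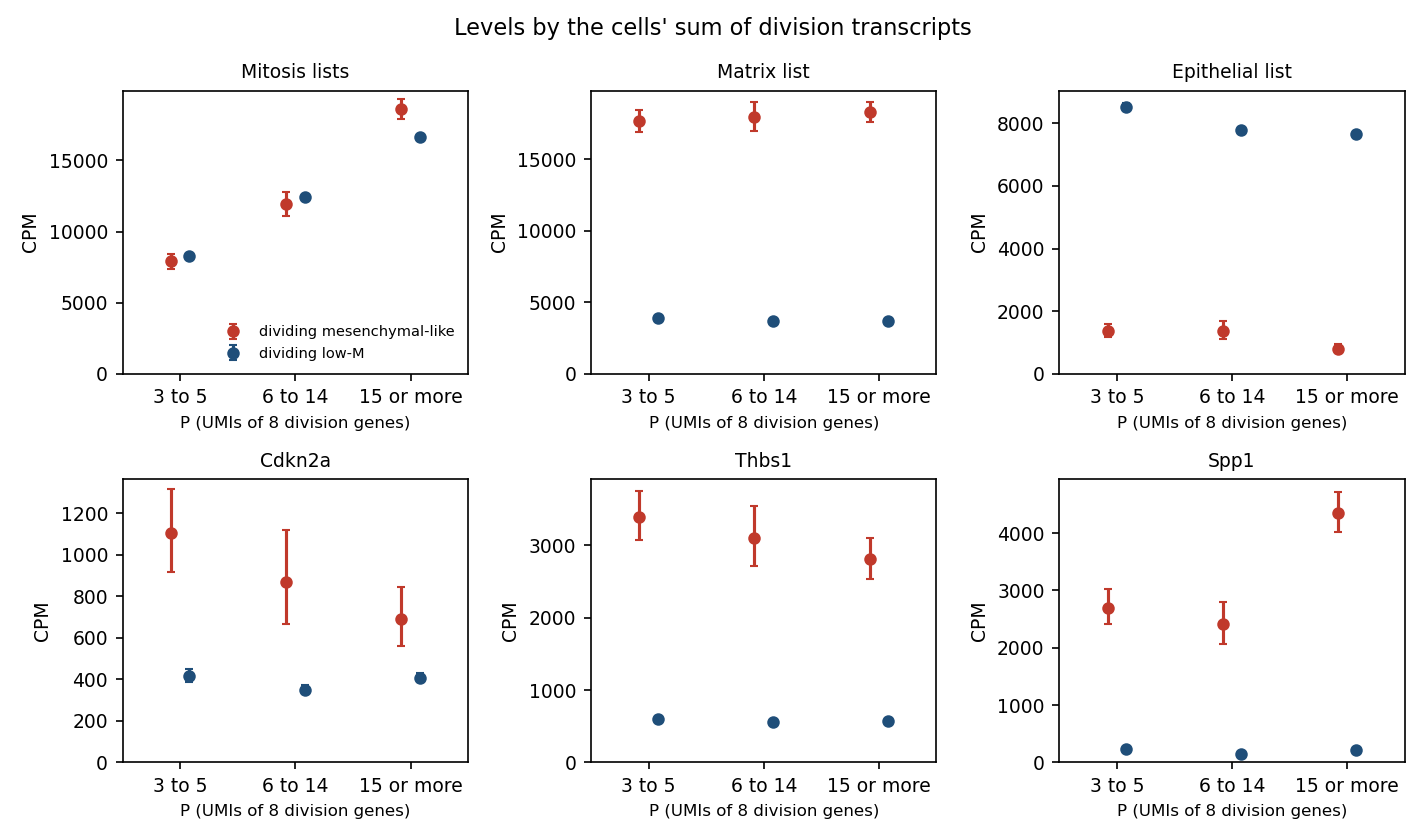
Levels (CPM, from 0) of 3 lists and 3 genes by class of P in dividing mesenchymal-like (red) and dividing low-M cells (blue), with exact 95% Poisson intervals. Matrix levels in members run from 17675 to 18318 CPM across classes while Cdkn2a is highest at P of 3 to 5.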

How the data were processed

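1 gene expression matrix was analysed, in which the deposited values are raw UMI counts per gene and cell. It was written by Cell Ranger 8.0.1 per the file headers, and the submitters' processing notes name mm10 and Scanpy 1.8.2. The labels list 3 libraries (expression, barcodes and scars) for 1 sample. Counts were summed per set of cells and divided by the summed total (CPM). Genes with a mean of at least 20 CPM over the 2 sets were compared, a ratio of at least 2 counting as past the fold. Levels have exact Poisson, shares exact binomial (Clopper-Pearson) and ratios exact conditional binomial 95% intervals, which cover counting error only. The floor for a count of 0 was 3 UMIs. For shares across depths, each cell was drawn down to 1500 UMIs. The code was tested on simulated data. With 1 sample, no test was possible.

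Gene positions are from GENCODE M21 (GRCm38), where 32158 of 32287 feature IDs matched, the build behind mm10. Promoters are from RefSeq (GRCm38.p6). Scrublet in scanpy 1.11.5, with 5% expected doublets, called 1 of 14925 cells (0.0067%), which is not a working call, so no cell was removed. Python 3.11.15, numpy 2.4.6 and scipy 1.17.1 were used.

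Members, lists and tests were chosen with earlier results of these data known. Named genes were the 16 genes of the rule, the genes named for knockout in PC and PCN with Cdkn2b, up to 4 of each list by ratio in each direction and by UMIs, and 10 genes outside the lists in each direction, with at least 20 UMIs in the higher set. They also took in the 5 most abundant genes, GFP and Scar. Ccnd1, Cdk2, Cdkn2d, Ccnb2, Dsg2, Elf3, Col1a2, Des and the fibroblast markers at 0 fall outside this rule and were chosen after their values were seen. Alternatives moved each limit of the rule, the depth, the CPM minimum and the ratio, and left out deep cells and cells with high doublet scores.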

Additional observations from a re-analysis of the deposited data

Results flagged for a closer look

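2 sequences added to the genome of the count matrix, named GFP and Scar, are described in no comparison above, although their UMIs count in the totals. Each had a UMI in 73 of 73 members, 100% (exact binomial lower bound 95.1%). A count of 0 would allow up to 4.11% by a floor of 3 cells and 4.93% by the exact binomial limit. GFP was at 12344 CPM (11963 to 12733) in members, 12443 in non-dividing mesenchymal-like, 11957 in dividing low-M and 15566 in non-dividing low-M cells. Scar was at 11081 CPM (10721 to 11451), 11019, 11012 and 15087 in the same order. They were singled out as a signal outside the main measurement, and both ranked among the 5 most abundant features of the members.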

How the results depend on the processing

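No paired analysis was possible because the deposited matrix is 1 sample without replicates, and no replicate could be left out. The number of members ran from 56 to 97 under 8 changes of the limits, the quality filter, the depth or the doublet score, and was 28 with the rule applied after drawing each cell down to 1500 UMIs. The share of mesenchymal-like cells in division was 3.08% with that rule, 3.01% with P alone drawn down and 3.64% with P of at least 5, and between 4.18% and 5.91% under the 7 other settings, against 4.74% as reported.

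Counts of genes past the fold depended on the limits. In the order higher and lower than non-dividing mesenchymal-like cells, then higher and lower than dividing low-M cells, they were 662, 492, 969 and 943 at a mean of at least 10 CPM, 133, 63, 284 and 231 at 50 CPM, and 49, 25, 137 and 85 at 100 CPM, a limit chosen after seeing the data. They were 897, 780, 1275 and 1183 at a ratio of 1.5, and 193, 28, 290 and 255 at a ratio of 3. With the rule applied after drawing down, 714 genes were higher and 475 lower than in non-dividing mesenchymal-like cells. The other settings stayed within 1.5 times.

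Of 1051 recomputed ratios for 96 named gene comparisons, 986 lay inside the counting interval of the reported ratio, 63 lay outside it and 2 reversed. Both were Dcn against non-dividing mesenchymal-like cells, at 0.577 without the 5% of cells with the most UMIs and 0.359 with an epithelial sum of at most 1. With 73 cells, 1 UMI in members is worth 3.1 CPM, and genes with a mean under 20 CPM over the 2 sets were not compared.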
